A study of Mus musculus with 10 samples.

Results

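The genes described here encode subunits of ligand-gated ion channels, the receptors that open an ion pore when a transmitter binds. They were taken from the deposited table by symbol: every protein-coding row named as a GABA-A, glycine, nicotinic, serotonin 5-HT3, AMPA, kainate, NMDA or delta receptor subunit. The rule found 48 genes of the 18464 in the table, of which 14859 are protein-coding. The values below cover 44 of them: 11 GABA-A, 4 glycine, 11 nicotinic, 1 5-HT3, 4 AMPA, 5 kainate, 7 NMDA and 1 delta receptor subunit. Further symbols of these families (Chrna9, Chrna10, Chrnd, Chrne, Chrng, Gabra6, Gabrr1, Gabrr3, Glra4 and Htr3b) have no row in the table and could not be analysed here.

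RNA was measured by polyA RNA-seq in 10 libraries from ventral midbrain of naive mice of the Aldh1l1-NuTRAP strain, dissected to hold the ventral tegmental area and the compact part of the substantia nigra. In such mice ribosomes carry a tag in cells that use the promoter of Aldh1l1, an enzyme of folate metabolism found in brain mainly in astrocytes, and translating ribosome affinity purification (TRAP) collects RNA on those ribosomes. The 5 input libraries hold RNA of all cell types, and the 5 astrocyte fraction libraries hold the purified RNA. Both groups carry the same genotype, and neither received a drug. Age and sex are not stated in the labels, and the labels do not say whether the title numbers 88, 92, 976, 981 and 982, each shared by 1 input and 1 fraction library, are separate animals, so the spread behind each p-value is that of samples and may be technical. Values per library are given in that order of numbers.

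Ligand-gated channels fall into families by their build. GABA-A, glycine, nicotinic and 5-HT3 receptors are pentamers, while AMPA, kainate, NMDA and delta receptors are tetramers of the glutamate receptor family. GABA and glycine open chloride channels, and acetylcholine, serotonin and glutamate open cation channels. Which subunits a cell makes sets the affinity, kinetics, ion selectivity and drug response of its receptors. Neurons use them for fast synaptic transmission. Astrocytes carry GABA-A and glutamate receptor channels too, away from classical synapses. The ventral midbrain holds dopamine neurons, known for the nicotinic subunits Chrna6 and Chrnb3, among GABA neurons and glia.

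Inputs held between 21812193 and 30878894 expected counts in all. Fraction library 92 held 3845554 and the remaining 4 fractions 24479136 to 26924406. On the CPM scale (counts divided by the TMM-scaled library size), 3 counts, the level that a count of 0 allows, come to 0.880 CPM for fraction 92, to 0.0912 to 0.125 CPM for inputs and to 0.120 to 0.136 CPM for the remaining fractions. These limits cover counting error only. The label of the fraction was checked with marker genes: 12 of 12 astrocyte markers were higher in the fraction (median log2 fold change 3.05; summed level 5195 to 5661 CPM in the input and 29029 to 42637 CPM in the fraction). All 12 pan-neuronal markers were lower (median -2.33, or 19.9% of input; 7047 to 8189 against 1656 to 2127 CPM), and none was at 0 in all fraction libraries. Markers of dopamine neurons (6 of 6), GABA neurons (3 of 3), oligodendrocyte precursors (5 of 5), mature oligodendrocytes (6 of 6) and microglia (6 of 6) were also lower. Endothelial and mural markers were mixed (of 6, 3 lower, 1 higher, 2 not called). The 3 choroid plexus markers of the table were not called and were high in numbers 976 and 982: their sum was 3195 and 648 CPM in those inputs against 7.81 to 14.98 CPM, and 12240 and 2552 CPM in those fractions against 57.2 to 81.1 CPM. The same inputs had the lowest summed dopamine neuron markers (320 and 312 CPM, against 644 to 1378 CPM).

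The comparison asks how far each transcript is enriched on the tagged ribosomes. Most subunits were depleted from the astrocyte fraction, and members of the GABA-A, AMPA and NMDA classes were enriched in it. A kainate member, Grik5, was called higher by a small margin (log2 0.18, edgeR adjusted p = 0.0477), a call that most alternatives did not keep. Of the 44 subunits, all of which were tested, 33 were lower in the fraction than in the input, 6 were higher and 5 were not called. Calls come from edgeR's quasi-likelihood test with Benjamini-Hochberg adjustment over all 17672 genes tested, at an adjusted p under 0.05. Among all tested genes, 37.5% were called lower and 33.1% higher. The deposited table keeps genes with 5 or more counts in every library of at least 1 group. Gabre, Gabrr2, Chrna1, Chrna2, Chrna5, Chrna7 and Htr3a had fewer in at least 1 fraction library. They entered the table through the inputs only, where they are high, so their lower calls are not independent of that filter. Chrnb1 entered through the fractions only. The median log2 fold change (astrocyte fraction minus input) was -1.76 over the subunits, 29.5% of input, and -0.06 over all tested genes, 95.8% of input. All fraction libraries lay below all input libraries for 27 subunits and above them for 4, where 31.1% and 27.2% of all tested genes did so. With each fraction library under 3 counts set to its limit, 25 of the 27 still did, and Gabrr2 and Htr3a did not. Without fraction library 92 the counts were 6 higher and 33 lower, and without both libraries of numbers 976 and 982 they were 6 and 30. With scaling to the total count in place of TMM, the median of all genes moved from -0.06 to -0.34 and called genes went from 46.9% to 34.0% higher; 5 subunits were then higher and 33 lower. The fraction is RNA collected on tagged ribosomes, and the input is RNA of all cell types. A fold change between them cannot tell apart the number of cells of a type, the RNA per cell and the part of it on ribosomes.

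The 6 higher subunits, in order of their log2 fold change, were Gabrg1 (2.304), Grin2c (1.74), Gria1 (1.64), Gabrb1 (1.02), Gabra2 (0.68) and Grik5 (0.18). All 6 lay below the median of the astrocyte markers. Of the 33 lower subunits, 28 had log2 fold changes within the range of the 12 pan-neuronal markers (-2.61 to -0.46). Map2 alone set the upper end of that range, and every other marker was at -2.18 (Snap25) or below. The median of the 33 lower subunits was -2.03, so most of them fell less than every pan-neuronal marker but Map2. Above the range of all 12 markers lay Grik4 (-0.37). Below it lay Gabrd (-2.899), Grin2d (-2.67), Chrna5 (-2.66) and Chrnb3 (-2.61). The share of neuronal RNA in these differences was not tested.

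**Figure D1:**
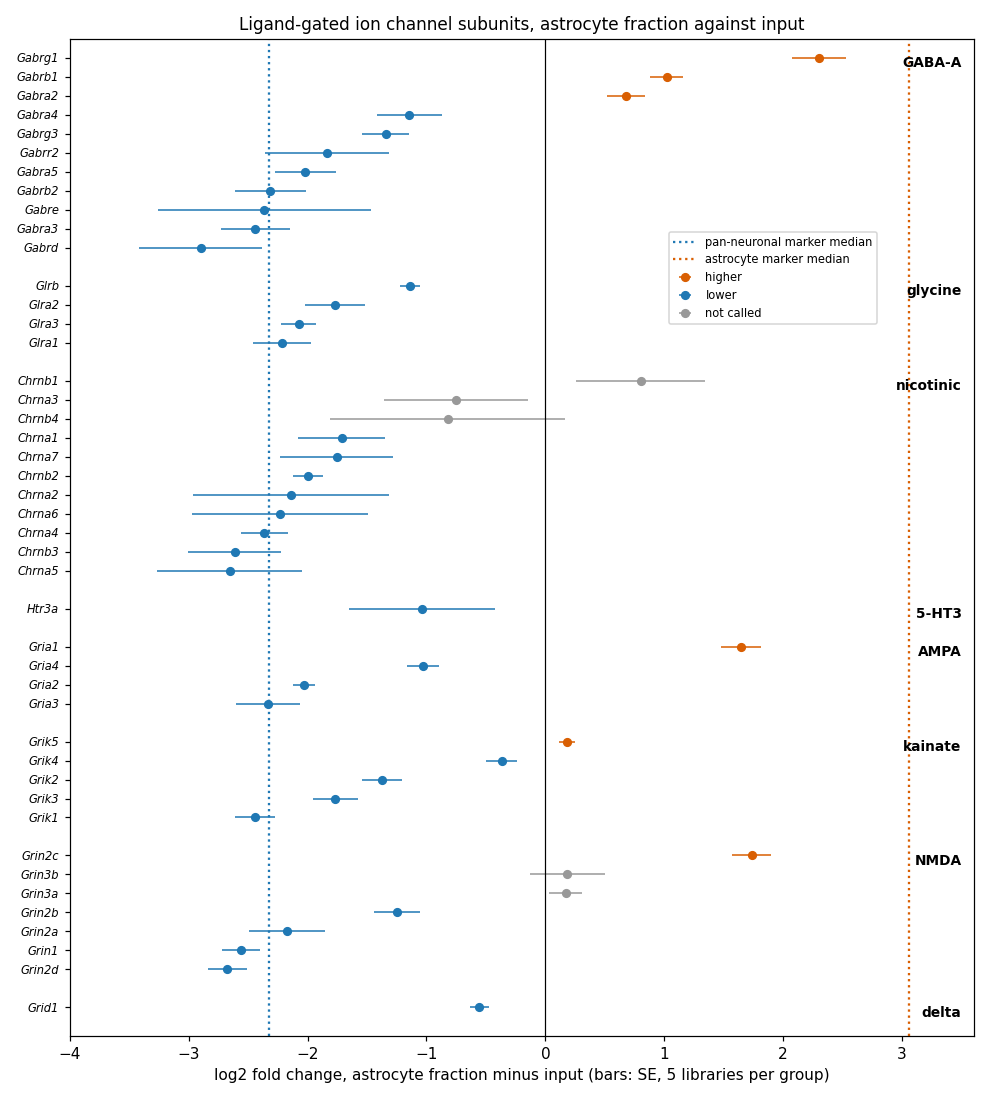
Log2 fold change of each of the 44 subunits, astrocyte fraction minus input, grouped by receptor class (points with SE over 5 libraries per group; colours give the edgeR call). Dotted lines mark the medians of the pan-neuronal (-2.33) and astrocyte (3.05) markers: 33 subunits lie to the left of 0 and are called, and 6 called subunits lie to the right, led by Gabrg1 at 2.30.

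Among GABA-A receptor subunits, 3 of 11 were higher in the fraction (all tested genes: 33.1%) and 8 were lower (37.5%). The higher ones were 1 each of the alpha, beta and gamma subfamilies. Most GABA-A receptors of the brain combine alpha, beta and gamma subunits, and the gamma subunit shapes benzodiazepine response and synaptic clustering. Gabrg1 (ENSMUSG00000001260, chr5:70751047-70842617 on the minus strand, mm10) encodes gamma-1, a subunit known from Bergmann glia and a limited set of neurons. It stood at 44.3, 30.3, 27.01, 46.6 and 28.5 CPM in the inputs against 200.4, 176, 127, 226 and 143 CPM in the fractions. Every fraction library was above every input, and the level rose 4.94-fold (log2 2.304 ± 0.23 SE, n = 5 per group, edgeR adjusted p = 8.66e-07). Gabrg3, of the same subfamily, was at 28.6, 20.7, 17.3, 28.4 and 19.6 CPM in the inputs against 11.2, 7.04, 7.02, 9.19 and 9.72 CPM in the fractions. It fell to 39.4% of input without overlap (log2 -1.34 ± 0.20, edgeR adjusted p = 1.84e-05).

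Beta subunits hold the GABA site together with alpha subunits. Gabrb1 (ENSMUSG00000029212, chr5:71658113-72149037, plus strand) was at 113, 145, 98.5, 117 and 106 CPM in the inputs against 241, 276, 179, 249.6 and 229 CPM in the fractions. The groups did not overlap, and Gabrb1 rose 2.03-fold (log2 1.02 ± 0.14, edgeR adjusted p = 8.19e-06). Gabrb2, a common subunit of synaptic receptors, was at 92.5, 149.7, 81.1, 101 and 89.2 CPM in the inputs against 16.03, 39.3, 14.8, 16.1 and 18.9 CPM in the fractions. Library 92 was the highest in both groups, and still every fraction was below every input (log2 -2.31 ± 0.30, edgeR adjusted p = 1.63e-05). Within each library the ratio of Gabrb1 to Gabrb2 is independent of library scaling, apart from the 0.5 CPM added to each level. The mean log2 ratio went from 0.20 ± 0.14 in the inputs to 3.54 ± 0.45 in the fractions (SD, n = 5), a difference of 3.35 ± 0.21 SE. The exact two-sided permutation test gave p = 0.00794, the smallest that 5 against 5 libraries can give. Adjusted over the 8 subunit ratios computed, the exact permutation p was 0.00907. As Gabrb1 rose and Gabrb2 fell without overlap, this p was fixed in advance and is no further support.

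Alpha subunits set the benzodiazepine class of the receptor. Gabra2 (ENSMUSG00000000560, chr5:70957597-71095849, minus strand) was at 98.6, 66.9, 72.9, 87.99 and 83.7 CPM in the inputs against 137, 151, 97.4, 157 and 115 CPM in the fractions. Fraction library 976 lay just below input 88, so the groups overlapped, but the fraction exceeded its same-numbered input in 5 of 5 pairs and the level rose 1.598-fold (log2 0.68 ± 0.16, edgeR adjusted p = 0.000795). Gabra3 was at 92.9, 91.5, 62.95, 114 and 66.4 CPM in the inputs against 18.5, 19.4, 9.97, 21.3 and 10.04 CPM in the fractions. It fell to 18.4% of input with no overlap (log2 -2.44 ± 0.29, edgeR adjusted p = 6.19e-06). Gabra5 (-2.02) fell without overlap too. Gabra4, the alpha subunit of many extrasynaptic receptors, fell by 1.15 with overlapping groups, and without numbers 976 and 982 its change of -0.98 was no longer called (edgeR adjusted p = 0.0587).

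The delta, epsilon and rho subunits were lower. Gabrd encodes delta, which takes the place of gamma in extrasynaptic receptors that carry tonic current. Its log2 fold change was -2.899 ± 0.52 (edgeR adjusted p = 0.000309). Its inputs were at 34.5, 92.4, 58.5, 37.5 and 81.9 CPM and its fractions at 4.36, 9.98, 12.2, 2.69 and 11.4 CPM. Libraries 88 and 981 were the lowest of both groups, and the groups did not overlap. Gabre (epsilon) averaged 4.56 ± 3.39 CPM in the inputs and 0.764 ± 0.91 in the fractions (log2 -2.36), and Gabrr2 (rho, which forms receptors of its own kind) 1.21 ± 0.316 and 0.281 ± 0.185 CPM (log2 -1.83). Gabre had no count in fraction library 92 and Gabrr2 none in fraction library 981. Both entered the deposited table through the inputs only. Gabrq (theta), a subunit outside the symbol rule, was also lower (log2 -2.03).

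**Figure D2:**
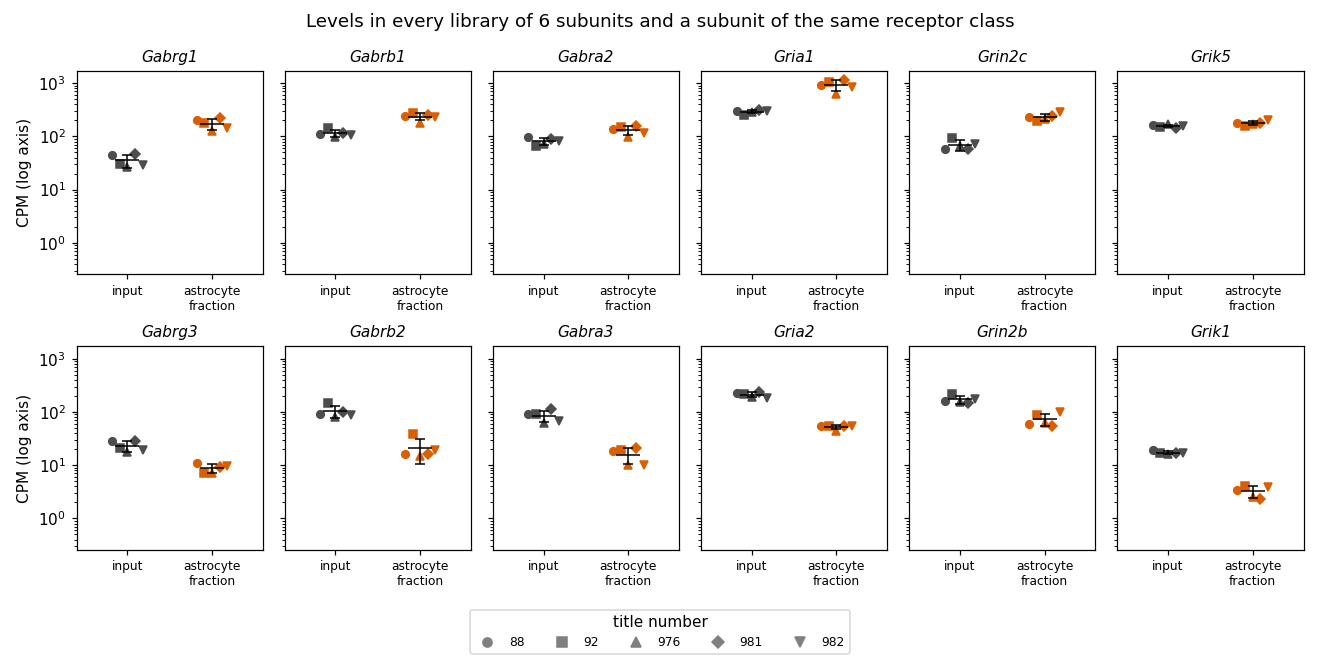
CPM in every library (log axis) of the 6 higher subunits, top row, and of a lower subunit of the same receptor class, bottom row, with the mean and SD of 5 libraries. Marker shapes give the title number. Gabrg1 goes from 27.0 to 46.6 CPM up to 127 to 226 CPM, while the rise of Grik5 is small and its groups overlap.

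Subunit genes of the GABA-A class lie in clusters, and the 3 higher ones share a cluster on chromosome 5. In chromosome order the cluster holds Gabrg1, Gabra2, Gabra4 and Gabrb1, of which the first 2 and the last rose and Gabra4 fell (-1.15 ± 0.27). Gabra4 and Gabrb1 lie head to head on opposite strands, and their gene models overlap by 196 bases in the file's coordinates and by 388 bases between the RefSeq starts. Bases that lie in exons of both genes are fewer, 0.76% of the exon bases of Gabra4 and 0.33% of those of Gabrb1. On chromosome 7, the neighbours Gabrg3 (-1.34) and Gabra5 (-2.02) were lower. Gabre and Gabra3 on chromosome X, the nicotinic pair Chrnb3 and Chrna6 on chromosome 8, and Gria2 with Glrb on chromosome 3 were lower as well. On chromosome 9 Chrna5 was lower, and its neighbours Chrna3 (-0.75) and Chrnb4 (-0.82) were not called.

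**Figure D3:**
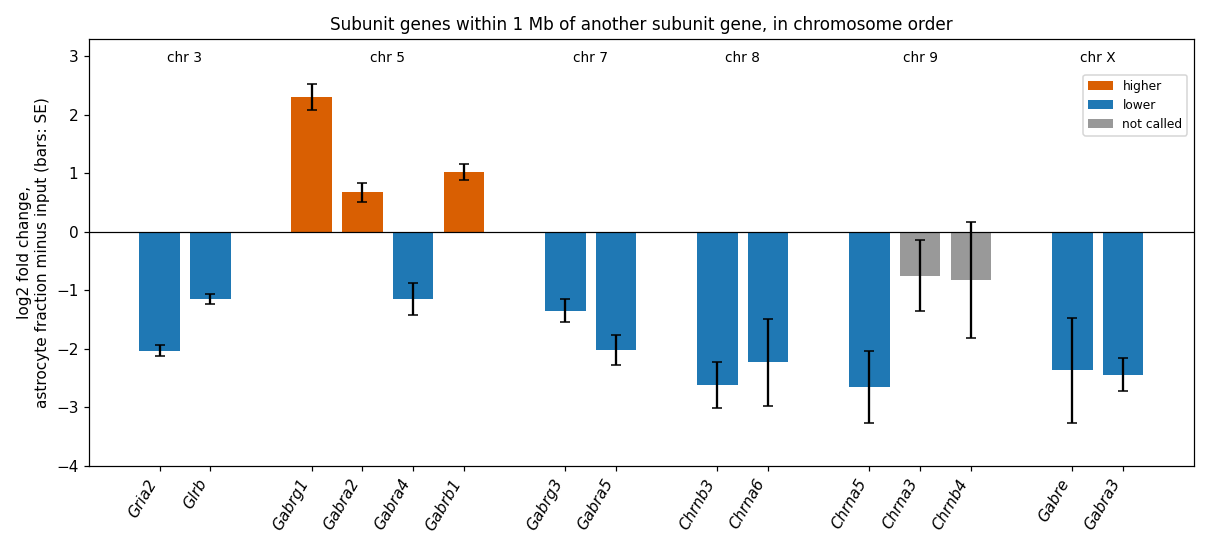
Log2 fold change (bars, with SE over 5 libraries per group) of the subunit genes within 1 Mb of another one, in chromosome order. On chromosome 5, Gabrg1, Gabra2 and Gabrb1 point up and Gabra4 between them points down to -1.15, while no called gene of the other clusters points up.

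The promoters of the 4 neighbours on chromosome 5 are shown because genes of this 1 cluster moved in opposite directions. RefSeq promoter windows (build GRCm38.p6, 250 bases before to 50 after the start of transcription) are written 5′ to 3′ on the gene's own strand. Capitals mark TTGGC or its reverse complement GCCAA, the half-site letters bound by nuclear factor I proteins. The windows are chr5:70842568-70842867 for Gabrg1 and chr5:71095800-71096099 for Gabra2, both on the minus strand, chr5:71658259-71658558 for Gabra4 on the minus strand, and chr5:71657671-71657970 for the first of the Gabrb1 starts on the plus strand.
Gabrg1: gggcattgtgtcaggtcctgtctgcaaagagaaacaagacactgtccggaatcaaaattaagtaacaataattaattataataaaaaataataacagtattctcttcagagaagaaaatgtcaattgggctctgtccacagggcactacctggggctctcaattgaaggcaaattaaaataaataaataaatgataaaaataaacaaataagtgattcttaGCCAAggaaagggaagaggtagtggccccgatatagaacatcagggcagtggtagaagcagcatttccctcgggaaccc
Gabra2: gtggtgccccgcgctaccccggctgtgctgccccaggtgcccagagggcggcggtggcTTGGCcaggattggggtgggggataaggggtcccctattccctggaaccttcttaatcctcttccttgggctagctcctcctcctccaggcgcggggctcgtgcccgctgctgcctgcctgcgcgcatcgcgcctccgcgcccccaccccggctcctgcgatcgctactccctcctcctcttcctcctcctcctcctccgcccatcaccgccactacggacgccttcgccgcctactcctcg
Gabra4: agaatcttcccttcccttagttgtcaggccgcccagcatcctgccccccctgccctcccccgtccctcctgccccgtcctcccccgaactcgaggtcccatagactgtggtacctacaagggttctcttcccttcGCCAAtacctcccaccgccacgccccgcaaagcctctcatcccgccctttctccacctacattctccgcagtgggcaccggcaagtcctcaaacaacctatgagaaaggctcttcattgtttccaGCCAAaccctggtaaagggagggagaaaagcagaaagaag
Gabrb1: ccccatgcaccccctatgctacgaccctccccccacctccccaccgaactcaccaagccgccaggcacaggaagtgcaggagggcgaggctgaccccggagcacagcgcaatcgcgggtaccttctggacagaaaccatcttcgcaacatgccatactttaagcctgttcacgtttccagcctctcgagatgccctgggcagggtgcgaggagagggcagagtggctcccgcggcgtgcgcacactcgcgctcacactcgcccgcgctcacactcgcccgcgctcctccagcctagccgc
The half-site occurs 1 time in the Gabrg1 window and in the Gabra2 window, 2 times in that of Gabra4 and 0 times in the first of Gabrb1. A second Gabrb1 start (window chr5:71699682-71699981) has 1 half-site, 50.3% G or C and 9 CpG dinucleotides. Of all 32851 RefSeq mouse promoter windows of this length, 46.7% hold it on either strand, so it does not set these genes apart. The windows differ in base composition. Gabrg1 has 38.3% G or C and 3 CpG dinucleotides, against 70% and 25 for Gabra2, 58.7% and 12 for Gabra4, and 66% and 25 for the first Gabrb1 start, where the median of all windows is 52.7% and 7. The letters TATAAA occur in none of these windows and in 13.6% of all windows on either strand. A match is a description of letters only. Of the 44 subunits, 31 had a RefSeq promoter entry.

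Of 9 GABA-A and glycine receptor scaffold and trafficking genes, 3 were higher (all tested genes: 33.1%), 5 lower (37.5%) and 1 not called. The highest was Gabarap, a receptor-binding protein that also serves autophagy (1.38, edgeR adjusted p = 2.35e-09), and the lowest was Shisa7, an auxiliary protein of GABA-A receptors (-2.62, edgeR adjusted p = 9.78e-09). The other two higher genes, named after their values were seen, were Gphn, the scaffold gephyrin (0.50), and Clptm1, which retains receptors inside the cell (0.59).

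All 4 glycine receptor subunits were called lower (all tested genes: 37.5%), and Glrb fell less than Glra1. Alpha subunits bind glycine, and Glrb anchors the receptor to gephyrin. Glrb was at 207, 238, 204, 222 and 227 CPM in the inputs against 96.98, 119, 87.6, 94.6 and 103 CPM in the fractions. It dropped to 45.3% of input with no overlap (log2 -1.14 ± 0.08, edgeR adjusted p = 7.77e-08). Glra1, the main alpha subunit of the adult brainstem and spinal cord, was at 11.4, 15.4, 15.9, 13.5 and 13.4 CPM in the inputs against 1.84, 4.11, 3.91, 2.095 and 3.39 CPM in the fractions, also without overlap (log2 -2.21 ± 0.25, edgeR adjusted p = 1.46e-06). Glra2 (-1.77) and Glra3 (-2.08) lay between them. The log2 ratio of Glrb to Glra1 went from 3.94 ± 0.18 to 4.86 ± 0.42 (SD), a difference of 0.93 ± 0.21 SE (exact permutation p = 0.00794). To set subunits against each other, levels were divided by the length of all exon bases (CPM per kb). On that scale Glrb held 77.03 ± 1.93% of the glycine receptor subunits in the inputs and 85.8 ± 1.77% in the fractions. With the median length of coding transcripts its shares were 91.14% and 94.96%.

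Nicotinic acetylcholine receptor subunits showed no higher member: 8 of 11 were lower (all tested genes: 37.5%) and 3 were not called. Of the lower ones, Chrna1, Chrna2, Chrna5 and Chrna7 entered the deposited table through the inputs only. The summed level of the 11 subunits was 72.9 ± 19.1 CPM per kb in the inputs and 16.8 ± 3.57 in the fractions (SD, n = 5). The ratio of 0.2303 was the lowest of the 5 classes whose sum is given here. Chrna4 and Chrnb2 form the main high-affinity nicotine site of the brain. Chrna4 was at 139, 221, 128, 191 and 157 CPM in the inputs against 23.1, 40.8, 34.7, 31.9 and 33.2 CPM in the fractions. It fell to 19.4% of input without overlap (log2 -2.36 ± 0.20, edgeR adjusted p = 1.01e-07). Chrnb2 fell by 1.996 (edgeR adjusted p = 8.25e-09); 16.3% of its exon bases overlap Adar on the opposite strand, and the strand setting of the counting is not given in the sources used here. Together the pair made up 46.2 ± 3.597% and 21.9 ± 4.001% of the class per kb in the inputs and 39.2 ± 5.64% and 23.6 ± 3.28% in the fractions. These shares depend on the length used. With the median length of coding transcripts Chrna4 was at 68.85% in the inputs and 62.56% in the fractions, and Chrnb2 at 14.23% and 16.62%.

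Chrna5, an accessory subunit that joins receptors of Chrna4 and Chrnb2, had a log2 fold change of -2.66 ± 0.61 (edgeR adjusted p = 0.000757). Its inputs were at 4.66, 4.803, 1.07, 6.74 and 1.74 CPM and its fractions at 0.694, 0.587, 0.1595, 0.941 and 0.316 CPM. Numbers 976 and 982 were the lowest of each group, and input 976 lay only just above the highest fraction, 981. The value of fraction library 92 stands for 2 counts. Chrna7, which forms calcium-permeable receptors on its own, had the smallest fall among subunits of this class above 1 CPM that were called. Chrna7 was at 9.76, 9.82, 6.49, 12.8 and 8.64 CPM in the inputs against 3.18, 0.587, 2.63, 3.42 and 2.85 CPM in the fractions (log2 -1.76 ± 0.47, edgeR adjusted p = 8.27e-05). Here too fraction library 92 stands for 2 counts, under the limit that a count of 0 allows in it. The log2 ratio of Chrna7 to Chrna4 was -4.07 ± 0.27 in the inputs and -3.56 ± 0.99 in the fractions (SD), a difference of 0.51 ± 0.46 SE that did not pass (exact permutation p = 0.302). Without fraction library 92 the difference was 0.93 and passed (exact permutation p adjusted over the ratios = 0.00794).

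Other nicotinic subunits varied widely among the libraries of 1 group. Chrna6 and Chrnb3, the subunits of dopamine neurons, fell by 2.23 ± 0.74 and 2.61 ± 0.39 (edgeR adjusted p = 0.0152 and 8.49e-05). Chrna6 was at 29.98, 50.7, 11.8, 75.01 and 14.2 CPM in the inputs against 6.201, 12.3, 2.19, 14.9 and 3.08 CPM in the fractions. In both groups it was highest in 981 and lowest in 976 and 982, as were the summed dopamine neuron markers. Chrna2, known from the interpeduncular nucleus, likewise stood at 0.737 and 1.13 CPM in inputs 976 and 982, and at 4.91 to 6.57 CPM in the other inputs, and fell by 2.14 (edgeR adjusted p = 0.0166). Chrna3 and Chrnb4, the pair of autonomic ganglia and the medial habenula, went the other way. Chrna3 was at 4.38, 6.32, 11.6, 6.11 and 13.9 CPM in the inputs against 1.39, 7.63, 5.82, 2.01 and 8.54 CPM in the fractions. Chrnb4 was at 1.37, 1.34, 10.6, 1.16 and 9.595 CPM in the inputs against 0.571, 4.99, 4.27, 0.513 and 3.35 CPM in the fractions. For both genes inputs 976 and 982 stood above the other inputs, and fractions 92, 976 and 982 above the other fractions. Chrnb4 was not called (log2 -0.82 ± 0.99, edgeR adjusted p = 0.369). Without these numbers its log2 fold change was 0.54 (edgeR adjusted p = 0.892). Chrna3 was not called at -0.75 ± 0.60 (edgeR adjusted p = 0.186), but with the title number as a replicate block it was called lower (-0.94, edgeR adjusted p = 0.00482). In the inputs, the choroid plexus markers and the low dopamine neuron markers of numbers 976 and 982 move with these levels. Fraction 92, high in Chrna3 and Chrnb4, had a choroid plexus sum of 57.2 CPM, against 12240 and 2552 CPM in fractions 976 and 982. Its dopamine neuron marker sum was 134 CPM, against 49.6 and 58.5 CPM in those fractions. The part of these markers was not tested.

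The subunits of muscle receptors were near the limit of these libraries. Chrna1 averaged 0.697 ± 0.216 CPM in the inputs and 0.227 ± 0.202 in the fractions and was called lower (log2 -1.71). Chrnb1 averaged 0.3898 ± 0.214 and 0.849 ± 0.608 CPM and was not called (log2 0.80, edgeR adjusted p = 0.156). Through the count filter before deposit, Chrna1 entered by the inputs only and Chrnb1 by the fractions only, so neither direction is independent of that filter. Of 7 genes for chaperones and modulators of nicotinic receptors, 1 was higher (all tested genes: 33.1%), 5 lower (37.5%) and 1 not called. Ric3, a chaperone of receptor assembly, was the higher one (0.64, edgeR adjusted p = 5.52e-05), and Ly6h, a membrane-anchored modulator, was the lowest (-2.12, edgeR adjusted p = 1.07e-06).

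**Figure D4:**
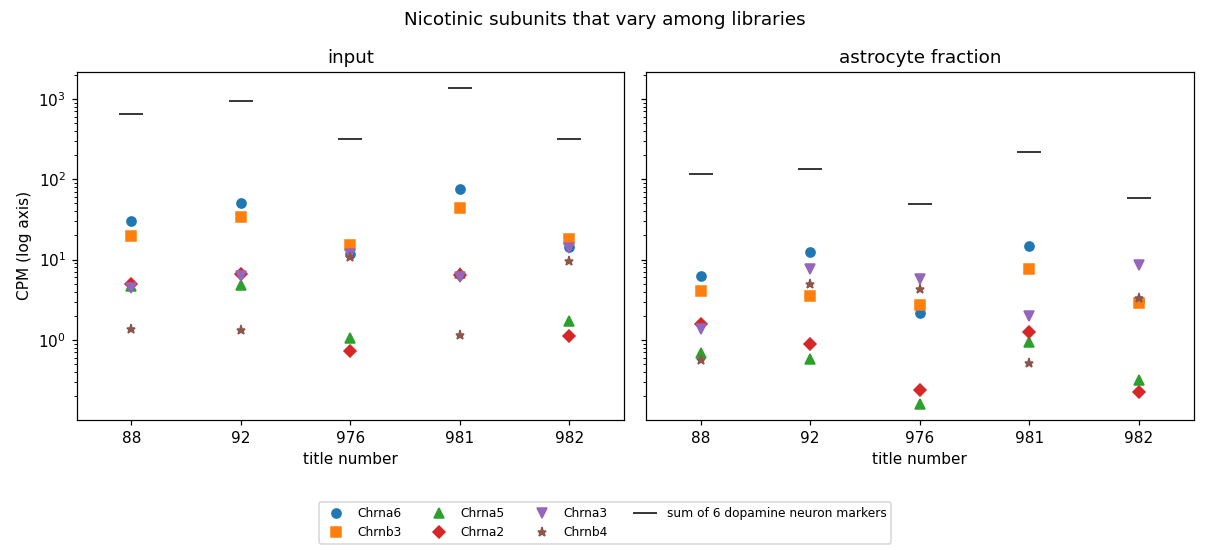
CPM (log axis) of 6 nicotinic subunits in each library by title number, with the sum of 6 dopamine neuron markers (dashes). In the inputs Chrna6, Chrnb3, Chrna5 and Chrna2 are lowest in 976 and 982, where the marker sum is 320 and 312 CPM, and Chrnb4 is highest there at 10.6 and 9.595 CPM.

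Htr3a, the subunit that forms serotonin-gated channels on its own, was the 1 member of its class and close to the limit. It was at 1.398, 0.7903, 1.47, 1.12 and 0.814 CPM in the inputs against 0.612, 0, 0.638, 0.342 and 0.543 CPM in the fractions. As listed, all fractions lay below all inputs, but the 0.880 CPM that the count of 0 in fraction 92 allows is above inputs 92 and 982, so an overlap cannot be told at this depth. Htr3a was called lower (log2 -1.04 ± 0.62, edgeR adjusted p = 0.0121), and without numbers 976 and 982 the call was lost (-1.13, edgeR adjusted p = 0.0638). Htr3a entered the deposited table through the inputs only.

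Among AMPA receptor subunits Gria1 rose (all tested genes: 33.1% higher) and the other 3 fell (37.5% lower). AMPA receptors carry most fast excitation, and the edited Gria2 product makes them impermeable to calcium. Gria1 (ENSMUSG00000020524, chr11:57011387-57330244, plus strand) was at 306, 255, 292, 309 and 305 CPM in the inputs against 920.1, 1069, 614, 1149 and 834 CPM in the fractions. The groups did not overlap, with fraction 976 the lowest of its group, and Gria1 rose 3.13-fold (log2 1.64 ± 0.17, edgeR adjusted p = 4.06e-07). Gria2 was at 222, 221, 191, 240.5 and 186 CPM in the inputs against 54.99, 54.3, 44.2, 53.4 and 53.4 CPM in the fractions. It fell to 24.5% of input without overlap (log2 -2.03 ± 0.09, edgeR adjusted p = 9.16e-10). Gria3 was measured at 97.6, 136, 108, 95.6 and 109 CPM in the inputs against 15.2, 39.03, 19.8, 14.3 and 22.3 CPM in the fractions. Its groups did not overlap although fraction 92 stood above the other fractions (log2 -2.33 ± 0.27, edgeR adjusted p = 3.57e-06). Gria4 fell by 1.03 ± 0.14 (edgeR adjusted p = 8.08e-06).

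Gria1 over Gria2 went, as a log2 ratio, from 0.47 ± 0.20 in the inputs to 4.098 ± 0.26 in the fractions (SD), a difference of 3.63 ± 0.14 SE (exact permutation p = 0.00794). As Gria1 rose and Gria2 fell without overlap, this p was fixed in advance and is no further support. Per kb of exon, Gria1 held 53.3 ± 3.83% of the AMPA subunits in the inputs and 91.01 ± 2.55% in the fractions, and Gria2 14.97 ± 1.46% and 2.06 ± 0.308%. With the median length of coding transcripts the Gria1 shares were 38.1% and 86.6%. Of the 5 classes whose summed level is given here, AMPA was the 1 that was higher in the fraction, 166 ± 34.1 against 91.1 ± 1.26 CPM per kb. Of the 44 subunits Gria1 had the highest level per kb in the fractions under each of the 3 lengths tried, 152 ± 34.7 CPM per kb of exon (SD, n = 5), followed on the exon scale by Grin2c (46.2 ± 7.04) and Grik5 (34.4 ± 3.22). In the inputs the order depended on the length. Per kb of exon Gria1 (48.5 ± 3.66), Glrb (47.2 ± 3.06) and Grin1 (45.3 ± 4.97) did not differ beyond their spread, while with the median length of coding transcripts Glrb (164 ± 10.6) and Grin1 (109 ± 11.99) lay above Gria1 (54.5 ± 4.11).

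Of 17 auxiliary and regulatory proteins of AMPA receptors, 11 fell (all tested genes: 37.5%), 3 rose (33.1%) and 3 were not called. The median log2 fold change of the 17 was -1.02. The highest was Abhd6, a hydrolase that limits surface delivery of AMPA receptors (1.05, edgeR adjusted p = 6.33e-07), and the lowest was Cacng3, a transmembrane AMPA receptor regulatory protein (-2.300, edgeR adjusted p = 3.22e-08). The other two higher genes, named after their values were seen, were Cacng8 (0.68), of the same family as Cacng3, and Shisa9 (0.56), an auxiliary subunit that affects desensitization. The summed level of the list was 1437 to 1642 CPM in the inputs and 901 to 1076 CPM in the fractions.

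**Figure D5:**
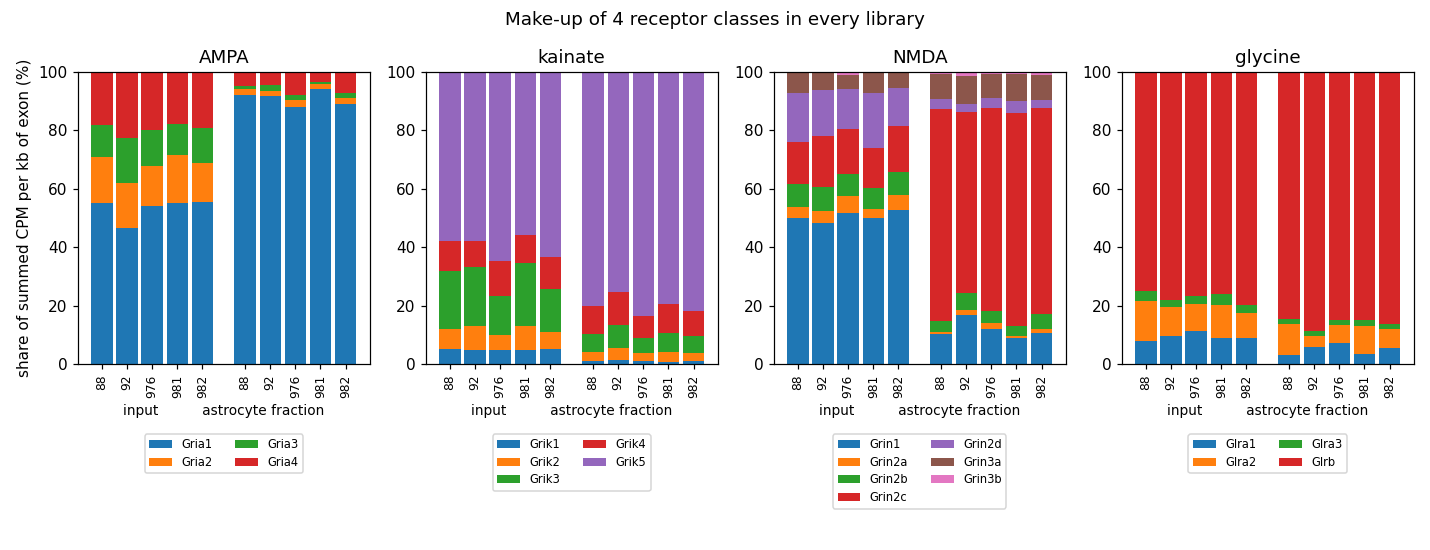
Share of each subunit in the summed CPM per kb of its group (%), in every library, for AMPA, kainate, NMDA and glycine receptor subunits. Gria1 holds 46.5% to 55.6% of the AMPA subunits in the inputs and 87.9% to 94.2% in the fractions, and the Grin1 share of the NMDA subunits falls while that of Grin2c rises.

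Kainate receptor subunits fell in 4 of 5 cases (all tested genes: 37.5%), and Grik5 was slightly higher. Grik4 and Grik5 encode high-affinity subunits that need Grik1, Grik2 or Grik3 to form a channel. Grik5 (ENSMUSG00000003378, chr7:25009849-25072346, minus strand) was at 163, 149.6, 168, 146 and 158 CPM in the inputs against 179.7, 158, 169, 179 and 203 CPM in the fractions. The groups overlapped, the fraction was higher in 5 of 5 pairs, and the level rose 1.14-fold (log2 0.18 ± 0.07, edgeR adjusted p = 0.0477). This call was lost with DESeq2 size factors (edgeR adjusted p = 0.0707), with DESeq2's Wald test (0.0532), with a filter at a mean of 5 CPM (0.291), with the authors' normalized values in limma (0.14), and without any 1 of input 88, 92, 981 or 982 or fraction 88, 981 or 982 (0.0613 to 0.107). With scaling to the total count the value was -0.10. Grik1 had the lowest value, with 19.05, 16.8, 16.4, 17.1 and 17 CPM in the inputs against 3.39, 4.11, 2.55, 2.27 and 3.89 CPM in the fractions. No library of the 2 groups overlapped (log2 -2.44 ± 0.17, edgeR adjusted p = 3.47e-08). Grik2 (-1.37) and Grik3 (-1.77) fell as well.

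Grik4 fell to 77.5% of input (log2 -0.37 ± 0.13, edgeR adjusted p = 0.018) with overlapping groups. It was not called without input 976 (-0.31, edgeR adjusted p = 0.0518), without fraction 976 (-0.20, 0.109) or without both libraries of 976 and 982 (-0.08, 0.607). Per kb, Grik5 held 59.9 ± 3.91% of the kainate subunits in the inputs and 80.01 ± 3.06% in the fractions (53% and 75.7% with the median length of coding transcripts), while Grik1, Grik2 and Grik3 together held less in every fraction than in every input. The auxiliary subunits Neto1 (-2.19 ± 1.09) and Neto2 (-1.57 ± 0.15), which slow the gating of kainate receptors, both fell (edgeR adjusted p = 0.000329 and 4.54e-07). Among all tested genes 37.5% were called lower. Neto1 had no count in fraction library 92, and its other fractions were at 2.57 to 4.27 CPM. It therefore entered the deposited table through the inputs only.

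In the NMDA class 1 of 7 subunits was higher (all tested genes: 33.1%), Grin2c, while 4 were lower (37.5%) and 2 were not called. NMDA receptors need Grin1, which binds glycine or D-serine, and Grin2 subunits, which bind glutamate and set the kinetics and the magnesium block. Grin2c (ENSMUSG00000020734, chr11:115249169-115267243, minus strand) encodes a subunit of low magnesium sensitivity known from cerebellar granule cells and astrocytes. It was at 58.8, 95.4, 64.9, 57.3 and 72.9 CPM in the inputs against 234, 191, 213, 239.5 and 286 CPM in the fractions. All fractions lay above all inputs, and Grin2c rose 3.33-fold (log2 1.74 ± 0.16, edgeR adjusted p = 3.23e-07). Grin2b was at 161, 219.6, 155, 149 and 177 CPM in the inputs against 59.5, 88.9, 62.4, 55.6 and 98.2 CPM in the fractions, and fell without overlap (log2 -1.24 ± 0.19, edgeR adjusted p = 2.97e-05). As a log2 ratio, Grin2c over Grin2b went from -1.31 ± 0.10 to 1.69 ± 0.39 (SD), a difference of 2.999 ± 0.18 SE (exact permutation p = 0.00794). With Grin2c higher and Grin2b lower without overlap, this p was fixed in advance and is no further support.

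Grin1, the obligatory subunit, was at 396, 511, 421, 404 and 465.5 CPM in the inputs against 63.4, 101, 71.7, 56.7 and 83.5 CPM in the fractions. It fell to 16.99% of input (log2 -2.56 ± 0.16, edgeR adjusted p = 6.66e-09), and 13.5% of its exon bases overlap the antisense gene Grin1os. Grin2d, known from midbrain and subthalamic neurons, fell too. Its inputs were at 91.8, 115, 78.02, 104 and 77.9 CPM and its fractions at 13.9, 11.2, 12.9, 18.3 and 15.5 CPM, with no overlap (log2 -2.67 ± 0.16, edgeR adjusted p = 4.07e-09). Grin2a fell by 2.17. The glycine-binding subunits Grin3a (64.1 ± 11 CPM in the inputs and 72.3 ± 8.88 in the fractions) and Grin3b (1.62 ± 0.666 and 1.96 ± 0.742 CPM) were not called, at log2 0.17 ± 0.14 and 0.19 ± 0.31 (edgeR adjusted p = 0.23 and 0.597). Both values turn below 0 with scaling to the total count (-0.11 and -0.09), Grin3a passes without fraction 976 (0.30, edgeR adjusted p = 0.0495), and 32.1% of the exon bases of Grin3b overlap Tmem259 on the opposite strand.

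Per kb of exon, Grin1 made up 50.6 ± 1.66% of the NMDA subunits in the inputs and 11.8 ± 3.103% in the fractions, and Grin2c 15.3 ± 1.45% and 69.4 ± 4.403%. The Grin2c share depends on the length used and was 5.496% and 38.7% with the median length of coding transcripts, where Grin1 was at 39.8% and 14.1%. Under each of the 3 lengths the share of Grin2c was higher in the fractions, that of Grin1 lower, and Grin2c exceeded Grin1 there. Of 10 genes for NMDA receptor scaffolds and co-agonist supply, 1 was higher (all tested genes: 33.1%), 7 lower (37.5%) and 2 not called. The higher one was Srr, serine racemase, which makes the co-agonist D-serine (1.14 ± 0.11, edgeR adjusted p = 6.51e-07), and the lowest was Shank1, a postsynaptic scaffold (-2.48 ± 0.14, edgeR adjusted p = 2.37e-09).

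Delta receptors belong to the glutamate receptor family but act mainly as synapse organizers that bind cerebellins and, through them, neurexins. Grid1 was at 85.5, 83.2, 68.3, 74.2 and 80.2 CPM in the inputs against 53.9, 56.05, 46.02, 54.01 and 57.3 CPM in the fractions. It fell to 68.1% of input without overlap (log2 -0.55 ± 0.08, edgeR adjusted p = 6.46e-05), the smallest fall among the called subunits after Grik4. The neurexins Nrxn3 (-2.35 ± 0.11, edgeR adjusted p = 8.47e-10) and Nrxn2 (-0.28 ± 0.08, edgeR adjusted p = 0.00835) were lower too.

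Across the classes, the within-library ratios of Gabrb1 to Gabrb2, Gria1 to Gria2, Grin2c to Grin2b and Glrb to Glra1 differed between fraction and input with groups that did not overlap (exact permutation p adjusted over the 8 ratios computed = 0.00907 for each). All 5 title numbers showed the direction. For Gabrb1 to Gabrb2, Gria1 to Gria2 and Grin2c to Grin2b, the first gene rose and the second fell without overlap. These ratios therefore could not overlap, and their exact permutation p was fixed in advance. It adds nothing to the calls of the single genes. With labels swapped only within the 5 pairs, 32 arrangements remain, the smallest exact permutation p is 0.0625, and no ratio can pass 0.05 (p = 0.0625 for each of the 4, adjusted 0.0714). The ratio of Chrna7 to Chrna4 passed neither. The 4 differences ran from 0.93 for Glrb to Glra1 to 3.63 for Gria1 to Gria2 on the log2 scale. In the fractions the subunits with the highest level per kb of exon after Gria1, Grin2c and Grik5 were Gabrg1 (22.2 ± 5.16 CPM per kb), Glrb (21.5 ± 2.504), Gabra2 (17.2 ± 3.26) and Gabrb1 (16.99 ± 2.57), where neighbours in that order did not differ beyond their spread. With the median length of coding transcripts Glrb came second there, at 74.7 ± 8.69 CPM per kb. The summed level per kb in the fraction, as a ratio to the input, was 1.82 for AMPA, 0.847 for kainate, 0.739 for NMDA, 0.408 for glycine and 0.2303 for nicotinic subunits. The NMDA ratio depends on the length used and was 0.481 with the median and 0.528 with the longest length of coding transcripts. With the median length the ratios were 1.37 for AMPA, 0.79 for kainate, 0.437 for glycine and 0.214 for nicotinic subunits, in the same order.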

How the data were processed

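PolyA RNA-seq of 5 input and 5 astrocyte fraction libraries was analysed from 1 deposited table. For each library the authors deposited expected counts per gene, which are estimated counts and not scaled, and a normalized log2 value centred on the input. Per the labels' protocols, 25 ng of total RNA went into each NEB Ultra II library. According to the submitters' processing notes, mm10, CASAVA 1.8 and DESeq were used, with no roles stated. How reads were aligned and counted, and with which strand setting, is not given in the sources used here. All 18464 genes have 5 or more counts in every library of at least 1 group, which shows a filter before deposit. Per library, 4.94% to 31.11% of expected counts were whole to within 0.001.

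The expected counts were rounded and tested with edgeR 4.0.16 (R 4.3.3): scaling by TMM, a filter by filterByExpr at a minimum count of 10 (17672 genes kept, 792 removed), the robust quasi-likelihood test without covariates, a prior count of 2, and Benjamini-Hochberg adjustment over all tested genes with a threshold of 0.05. The fit was tested on simulated data first. CPM use TMM-scaled library sizes and are given as mean ± SD. The SE of a log2 fold change comes from the log2 CPM of 5 libraries per group. Levels per kb divide CPM by all exon bases of the gene in GENCODE M21, in which all 48 subunits have the coordinates of the table. Subunit ratios are log2 of CPM with 0.5 added, compared by an exact two-sided permutation test over 252 arrangements and, as an alternative, over the 32 swaps within title numbers.

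Within a group, log2 CPM correlated at 0.921 to 0.99, and counts of any pair of libraries differed beyond sampling noise, so none was taken as a repeat of another. After removal of the group means, libraries of the same title number had correlations of 0.189 to 0.493, against a mean of -0.079 for other pairs. Removal of the means pulls other pairs below 0 where own pairs are positive, so -0.079 is not a neutral reference. Input 982 correlated best with a fraction of another number. The numbers were still taken to pair the samples. A fit with the number as a replicate block was run beside the one without it. Other alternatives were DESeq2 size factors, DESeq2's Wald test (version 1.42.0), scaling to the total count, other filters, each library left out, numbers 976 and 982 left out and, chosen after seeing the data, limma 3.58.1 on the deposited log2 values and other gene lengths.

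The subunits, partner lists, marker lists and ratios were chosen with earlier results of these data known. Of the 48 subunits 4 are not reported here, nor is 1 partner gene; counts over subunits are over the other 44, and sums and shares are given for classes reported in full. Values in every library are given for the called subunits with the highest and lowest log2 fold change of each class among those with a mean of 1 CPM or more in a group, for the members of the ratios and for those with the highest level per kb. Chrna3, Chrna6 and Chrnb4 were added after their values were seen. In partner lists the called genes of highest and lowest log2 fold change are named, for the delta receptor partners among those reported.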

Additional observations from a re-analysis of the deposited data

Results flagged for a closer look

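In each group of 5 libraries, the highest or lowest library of a subunit was singled out where its gap to the nearest other library was an unusually large part of the whole range. Of 88 groups tested, 11 had such a library. Chance gives about 1 in 20. Fraction library 92, with 3845554 counts the shallowest, accounts for 5 of the 11, and what lies behind them was not tested.

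In fraction library 92, Gabra4 was at 88.6 CPM (others 45.4 to 56.2), Gabra5 at 10.6 CPM (others 4.36 to 6.15) and Gabrb2 at 39.3 CPM (others 14.8 to 18.9). Its Chrna1 at 0.587 CPM was the highest of the group (others 0.120 to 0.163), and its Chrna7 at 0.587 CPM the lowest (others 2.63 to 3.42); both lie under the 0.880 CPM that a count of 0 allows there.

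Input library 92 held 150 CPM of Gabrb2 (149.7, others 81.1 to 100.9). Input library 88 was the highest for Gabre, at 10.4 CPM (others 2.14 to 4.53), and for Grik1, at 19.0 CPM (19.05, others 16.4 to 17.1). Input library 976 was the highest for Grin3b, at 2.80 CPM (others 1.24 to 1.40). Fraction library 981 was the highest for Chrnb3, at 7.61 CPM (others 2.71 to 4.08). Fraction library 976 was the lowest for Gria2, at 44.2 CPM (others 53.4 to 54.99).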

How the results depend on the processing

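The number of subunits called higher stayed between 5 and 7 and the number called lower between 27 and 34 in all settings run. The replicate block gave 6 higher and 34 lower, and apart from Chrna3 this paired fit changed no call. With the replicate block applied to the ratios by swaps within pairs, added after seeing the data, p cannot go below 0.0625, and those of Gabrb1/Gabrb2 (3.35), Gria1/Gria2 (3.63), Grin2c/Grin2b (2.999) and Glrb/Glra1 (0.93) missed the threshold (adjusted exact permutation p = 0.0714). Of 783 comparisons of a subunit with an alternative, 761 kept direction and side of the threshold. With the sign kept, 16 lost the call and 2 gained one, and 4 changed sign. These changes concern 8 subunits, and the other 36 kept their call in every setting that tested them (the 5 CPM filter left 35 of the 44). The sign changed for Chrnb4 without numbers 976 and 982 (0.54), and, with scaling to the total count, for Grik5 (-0.10), Grin3a (-0.11) and Grin3b (-0.086). Grik5 also lost its call with that scaling. Without numbers 976 and 982, 3 against 3 libraries remain, and the exact permutation test of a ratio cannot go below 0.10. The 4 ratios given here that passed then missed the threshold (adjusted p = 0.114 each, exact permutation test) with differences of 3.38 for Gabrb1/Gabrb2, 3.91 for Gria1/Gria2, 3.06 for Grin2c/Grin2b and 1.09 for Glrb/Glra1. Chrna7/Chrna4 passed with 2 CPM added (0.91, adjusted exact permutation p = 0.0397), and with 1 library left out it ran from 0.29 to 0.93. The cause was not tested. In fraction library 92, values under 0.880 CPM lie under its limit, among them those of Gabre, Gabrr2, Chrna1, Chrna5, Chrna7 and Htr3a.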
